A study of Homo sapiens with 6 samples.

Results

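The genes described here are 42 molecular chaperones, co-chaperones and regulators of protein folding, taken from a list of names and placed by the compartment where their proteins work: 22 in the cytosol (with the nucleus), 5 in mitochondria and 15 in the endoplasmic reticulum (ER). Of the 42, 38 had at least 1 Affymetrix probe set that names that gene alone and were measured, out of 19775 genes with such a probe set. HSPA1A, HSPA1B, HSPA8 and TCP1 were found only on probe sets that also name another gene, and no value is given for them. mRNA was measured on HG U133 PLUS 2.0 arrays in HT29, a human colon adenocarcinoma cell line, with 3 arrays of cells sensitive to methotrexate (MTX), an antifolate that inhibits dihydrofolate reductase, and 3 arrays of HT29 cells resistant to 10 µM MTX. The study asked which genes change expression with acquired resistance. Resistant cells had been obtained earlier by raising the MTX concentration in steps. They were kept in a medium without glycine, hypoxanthine or thymidine and with dialyzed serum, whereas sensitive cells grew in Ham's F12 with whole serum, so resistance and medium cannot be told apart. The sources used here do not say whether the resistant line was 1 clone, whether MTX was present at harvest, or whether the 3 samples of a line came from separate cultures, so p-values measure only how much these samples vary, which may be technical variation.

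Chaperones bind proteins that are not yet, or no longer, folded. Hsp70 proteins hold and release clients in cycles of ATP use that J-domain (Hsp40) proteins start and nucleotide exchange factors reset, Hsp90 finishes clients such as kinases and receptors, and the ring-shaped TRiC complex folds actin and tubulin in a closed chamber. Mitochondria import their own Hsp70, Hsp90 and Hsp60 with Hsp10, and the ER holds a parallel set together with lectin chaperones and protein disulfide isomerases (PDIs) for secreted and membrane proteins. Cytosolic chaperone genes are induced by heat shock factor HSF1 through heat shock elements, and ER chaperone genes by the unfolded protein response (UPR) through ATF6, XBP1 and ER stress elements.

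The promoters of 6 members are printed because they show both kinds of element beside members that were lower, higher or not called in the comparison that follows. Each runs from 250 bases before to 50 bases after a RefSeq transcription start (GRCh38.p14), 5′ to 3′ on the gene's strand. Capitals mark heat shock elements of 2 facing units (GAANNTTC or TTCNNGAA, overlapping matches joined) in DNAJA1, DNAJB6 and HSP90AA1, the ER stress element ERSE (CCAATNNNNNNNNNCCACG) in HSPA5 and CANX, and ERSE-II (ATTGGNCCACG) in HERPUD1.
DNAJA1 (chr9:33025023-33025322, plus strand): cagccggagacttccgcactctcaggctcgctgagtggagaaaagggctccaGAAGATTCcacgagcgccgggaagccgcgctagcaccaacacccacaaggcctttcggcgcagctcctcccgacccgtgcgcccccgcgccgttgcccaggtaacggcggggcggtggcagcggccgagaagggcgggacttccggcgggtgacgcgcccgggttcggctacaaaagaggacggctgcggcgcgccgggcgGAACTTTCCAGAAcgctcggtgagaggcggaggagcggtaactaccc
DNAJB6 (chr7:157336754-157337053, plus strand): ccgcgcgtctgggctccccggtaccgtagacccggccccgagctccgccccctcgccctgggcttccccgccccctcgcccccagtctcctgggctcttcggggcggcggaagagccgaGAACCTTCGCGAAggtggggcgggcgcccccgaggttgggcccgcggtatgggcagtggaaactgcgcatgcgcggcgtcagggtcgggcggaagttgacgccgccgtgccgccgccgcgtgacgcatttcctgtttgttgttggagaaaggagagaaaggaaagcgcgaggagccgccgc
HSP90AA1 (chr14:102086995-102087294, minus strand): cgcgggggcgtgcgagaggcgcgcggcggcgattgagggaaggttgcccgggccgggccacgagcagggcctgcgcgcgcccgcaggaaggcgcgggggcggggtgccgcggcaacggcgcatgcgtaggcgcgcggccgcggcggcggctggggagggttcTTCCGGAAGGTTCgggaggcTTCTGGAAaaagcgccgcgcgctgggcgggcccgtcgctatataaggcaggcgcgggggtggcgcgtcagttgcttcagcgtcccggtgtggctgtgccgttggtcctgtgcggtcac
HERPUD1 (chr16:56931892-56932191, plus strand): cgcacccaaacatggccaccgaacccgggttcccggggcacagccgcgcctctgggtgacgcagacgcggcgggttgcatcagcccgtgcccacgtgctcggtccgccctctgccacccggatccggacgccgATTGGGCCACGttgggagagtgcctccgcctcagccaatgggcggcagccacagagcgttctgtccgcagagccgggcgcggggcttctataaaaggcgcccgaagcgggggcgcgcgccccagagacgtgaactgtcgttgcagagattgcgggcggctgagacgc
HSPA5 (chr9:125241294-125241593, minus strand): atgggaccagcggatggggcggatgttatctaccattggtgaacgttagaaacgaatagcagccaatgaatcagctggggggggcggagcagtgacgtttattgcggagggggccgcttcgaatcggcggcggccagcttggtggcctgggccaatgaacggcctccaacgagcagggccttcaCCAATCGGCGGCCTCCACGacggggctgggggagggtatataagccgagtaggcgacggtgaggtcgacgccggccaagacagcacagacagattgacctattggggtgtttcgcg
CANX (chr5:179698679-179698978, plus strand): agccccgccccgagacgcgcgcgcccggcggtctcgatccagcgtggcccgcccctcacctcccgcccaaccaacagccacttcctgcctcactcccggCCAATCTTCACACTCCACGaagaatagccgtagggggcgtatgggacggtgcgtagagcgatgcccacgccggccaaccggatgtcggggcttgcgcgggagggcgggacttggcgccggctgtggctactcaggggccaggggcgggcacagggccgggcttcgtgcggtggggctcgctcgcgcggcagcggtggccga

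All motifs were searched on both strands in 35116 promoter windows, which include 53 windows of 39 members. CCT6A, HSF1 and PDIA3 had no window. The heat shock element of 2 units was in 16 of the 53 member windows (30.2%) against 13.5% of all windows. Its form with 3 units (GAANNTTCNNGAA or TTCNNGAANNTTC), which contains the form with 2, was in 6 of 53 (11.3%) against 0.49%. Those 6 windows belonged to the cytosolic DNAJA1, DNAJB6, HSP90AA1, HSP90AB1 and HSPA8 and the mitochondrial HSPD1. ERSE was in 8 member windows (15.1%) against 0.0769%, and these belonged to 6 ER genes: CALR, CANX, HSP90B1, HSPA5, PDIA6 and XBP1. Windows of 1 gene can overlap, as those of CANX do, so windows are not independent. ERSE-II was found for HERPUD1 and HYOU1, which make 3.77% of member windows against 0.0541% of all. The XBP1 site TGACGTGG was found for DNAJC10 and HYOU1 (3.77% against 0.729%). These matches describe letters in a window. The members belong to the gene classes from which these elements are known, so higher shares among them were likely beforehand and test nothing. Of the measured genes with the 3-unit element, DNAJA1, DNAJB6 and HSP90AB1 passed the test described below as lower, and HSP90AA1 and HSPD1 did not pass it.

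Deposited signals were divided by the median of their array, so a scaled signal of 1 is the level of the middle probe set on the chip. The deposited medians were 14.2 to 15.4 in the sensitive arrays and 13.3 to 16.9 in the resistant arrays. Pearson's r of log2 signals was taken over probe sets, without controls, whose scaled signal averaged 1 or more. It was 0.9689 to 0.9745 within the sensitive line, 0.966 to 0.9688 within the resistant line and 0.9136 to 0.9237 between them. Of 12 markers of colon epithelium, 9 averaged a scaled signal of 1 or more, and their summed level was 2061 to 2275 in sensitive and 1599 to 1798 in resistant arrays, with 6 markers lower and 1 higher. The intestinal factors CDX1 and CDX2 stayed at or under 0.656 in every array. The highest value for fibroblast, leukocyte or endothelial markers was 3.05 (CD14, a sensitive array). The 3′ to 5′ signal ratio of ACTB, a sign of RNA integrity, was 1.12 to 1.17 in sensitive and 1.17 to 1.30 in resistant arrays. The part of these differences in the results below was not tested. The number of arrays, not a read depth, limits the precision. In RNA of a whole culture, fewer cells with a transcript and less transcript per cell cannot be told apart.

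Among the members, cytosolic and mitochondrial chaperones were mostly lower in resistant cells, and those of the ER went both ways. Called here means an adjusted p under 0.05 in limma, fitted over 11835 genes whose scaled signal averaged 1 or more. By that rule 5 of the 38 measured members were higher and 17 lower, and 16 were not called. Of all genes tested, 12.4% were called higher and 22.5% lower. The dimmest member had a mean scaled signal of 5.98, and among the 7660 genes at least that bright the shares were 12.5% higher and 28.6% lower. The members' share was near the background in the higher direction (13.2%) and above it in the lower direction (44.7%) in this fit. That excess depended on the test. In limma without a trend 15.8% of members and 15.9% of all genes were called lower, and in the methods' t-test with equal variances 7.89% and 9.49%. No overlap between the 3 resistant and the 3 sensitive values was seen for 7 members in the higher and 18 in the lower direction, against 16.8% and 29.3% of all genes. No change of 3-fold or more was measured for any member, whereas 4.13% of all genes passed the test with such a change. The median log2 fold change (resistant over sensitive) was −0.30 over 18 cytosolic, −0.41 over 5 mitochondrial and 0.11 over 15 ER members. Beside it, the median was −0.10 over all genes tested and −0.16 over those as bright as the dimmest member.

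**Figure D1:**
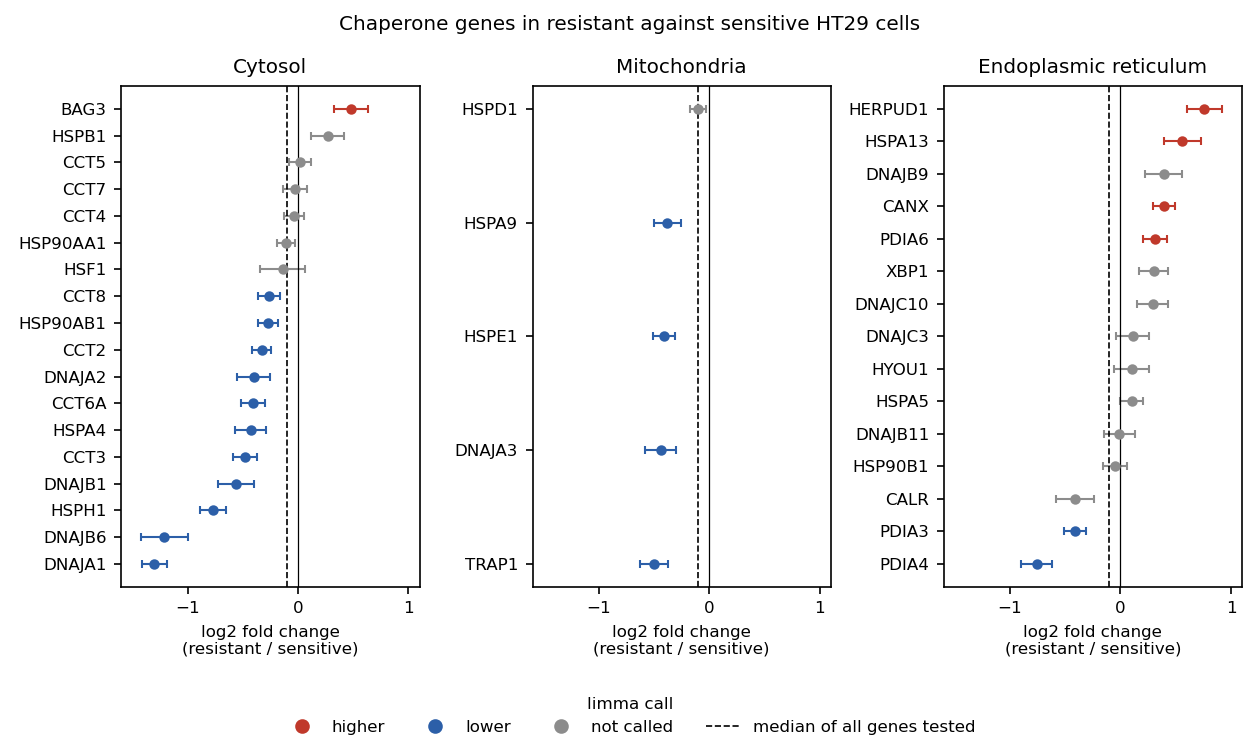
Log2 fold change (x axis, resistant over sensitive, 3 arrays each) of each measured chaperone gene (y axis), with bars for the SE, colours for the limma call and a dashed line at −0.10, the median of all genes tested. Cytosolic genes run from −1.30 (DNAJA1) to 0.48 (BAG3), all 5 mitochondrial genes lie under 0, and ER genes run from −0.76 (PDIA4) to 0.76 (HERPUD1).

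The J-domain proteins of the cytosol, which deliver clients to Hsp70 and start its ATP use, held the strongest decreases among the members, and all 4 were called lower, with a median log2 fold change of −0.88. DNAJA1, a main partner of the constitutive Hsp70, had scaled signals of 255, 230 and 230 in the sensitive arrays and 103, 83.3 and 107 in the resistant arrays. Every resistant value lay far below the lowest sensitive value. Its level fell to 0.407 times the sensitive level (log2 fold change −1.30, SE 0.11, limma adjusted p = 4.8e-12). DNAJB6, which suppresses aggregation of polyglutamine proteins, was a dimmer gene with 14.0, 11.0 and 11.3 in sensitive and 6.80, 3.21 and 6.47 in resistant cells. The groups did not overlap, and the second resistant array was the lowest (log2 fold change −1.21, SE 0.21, limma adjusted p = 1.7e-05). DNAJB1, the stress-induced J-domain protein of disaggregation, was at 39.4, 35.7 and 34.8 against 28.5, 22.1 and 24.2 (−0.56, SE 0.16, limma adjusted p = 0.0042). DNAJA2 fell by 0.40 on the log2 scale (limma adjusted p = 0.043), and 12 of 18 alternative settings ended that call, among them leaving out any array other than resistant 1. DNAJB6 was read from a probe set of its own, and another probe set that names it together with a second gene was not used.

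Of the 5 cytosolic members of the Hsp70 and Hsp110 families, only 2 exchange factors of the Hsp110 type could be measured, and both were lower. HSPH1 (Hsp105) had 197, 186 and 193 in sensitive and 107, 96.7 and 136 in resistant cells. The resistant arrays spread more (mean 113 ± 20.7, SD, n = 3) than the sensitive ones (192 ± 5.68), without overlap. The fall was 0.77 on the log2 scale (SE 0.12, limma adjusted p = 1.6e-06). HSPA4 (Apg-2) went from 85.1 ± 5.47 to 63.9 ± 11.8 (SD, n = 3; log2 fold change −0.43, limma adjusted p = 0.014). Its call was lost without sensitive array 1 (adjusted p = 0.067) or resistant array 2 (adjusted p = 0.089).

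The Hsp90 pair of the cytosol was among the brightest of the members and moved little. HSP90AA1, the stress-inducible form, had 497, 471 and 525 in sensitive and 453, 453 and 479 in resistant arrays. These values overlap, and the log2 fold change of −0.11 (SE 0.08) was close to the median of all genes (limma adjusted p = 0.31). HSP90AB1, the constitutive form, had 414, 376 and 394 against 310, 313 and 359, with no overlap and a log2 fold change of −0.27 (SE 0.09, limma adjusted p = 0.014). Without sensitive array 3, resistant array 1 or resistant array 2 its adjusted p was 0.052, 0.064 and 0.05, and the call was lost.

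TRiC is built of 8 different subunits, of which all but TCP1 were measured. Of these 7, which sit side by side in the same ring, 4 were called lower and 3 were not called. CCT3 was at 190, 166 and 175 in sensitive and 139, 113 and 130 in resistant cells (log2 fold change −0.48, SE 0.11, limma adjusted p = 0.00087). CCT6A fell by 0.41 (limma adjusted p = 0.0027) and CCT2 by 0.33 (limma adjusted p = 0.0065) on the log2 scale, both without overlap. CCT8 had a log2 fold change of −0.26 with overlapping arrays (limma adjusted p = 0.048), a call that 13 of 18 alternatives ended, 5 of which leave out a single array other than resistant 1. CCT4, CCT5 and CCT7 had log2 fold changes of −0.04, 0.02 and −0.03 with SEs of 0.09 to 0.11, and their arrays overlapped. Differences between subunits were not tested.

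The remaining cytosolic members have other roles. BAG3, an Hsp70 co-chaperone that directs clients to autophagy, was the one cytosolic member called higher, with 34.4, 35.5 and 34.1 in sensitive and 56.9, 41.8 and 47.4 in resistant arrays. All resistant values lay above all sensitive values (log2 fold change 0.48, SE 0.15, limma adjusted p = 0.011), though the call was lost without sensitive array 3 (adjusted p = 0.05). HSPB1 (Hsp27), a small heat shock protein that binds actin, had means of 69.5 ± 10.6 and 85.4 ± 22.4 (SD, n = 3) and was not called (log2 fold change 0.27, limma adjusted p = 0.17). 2 of its resistant arrays lay above the sensitive ones and 1 below them, and without that array (resistant 3) the log2 fold change was 0.51 (adjusted p = 0.0078). The HSF1 transcript was dim in both lines, 6.28 ± 1.06 and 5.69 ± 0.995 (SD, n = 3), with a log2 fold change of −0.14 (limma adjusted p = 0.61). In all, 11 of 18 measured cytosolic members were called lower. Without resistant array 2, which held the lowest value of many of them, 7 were.

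**Figure D2:**
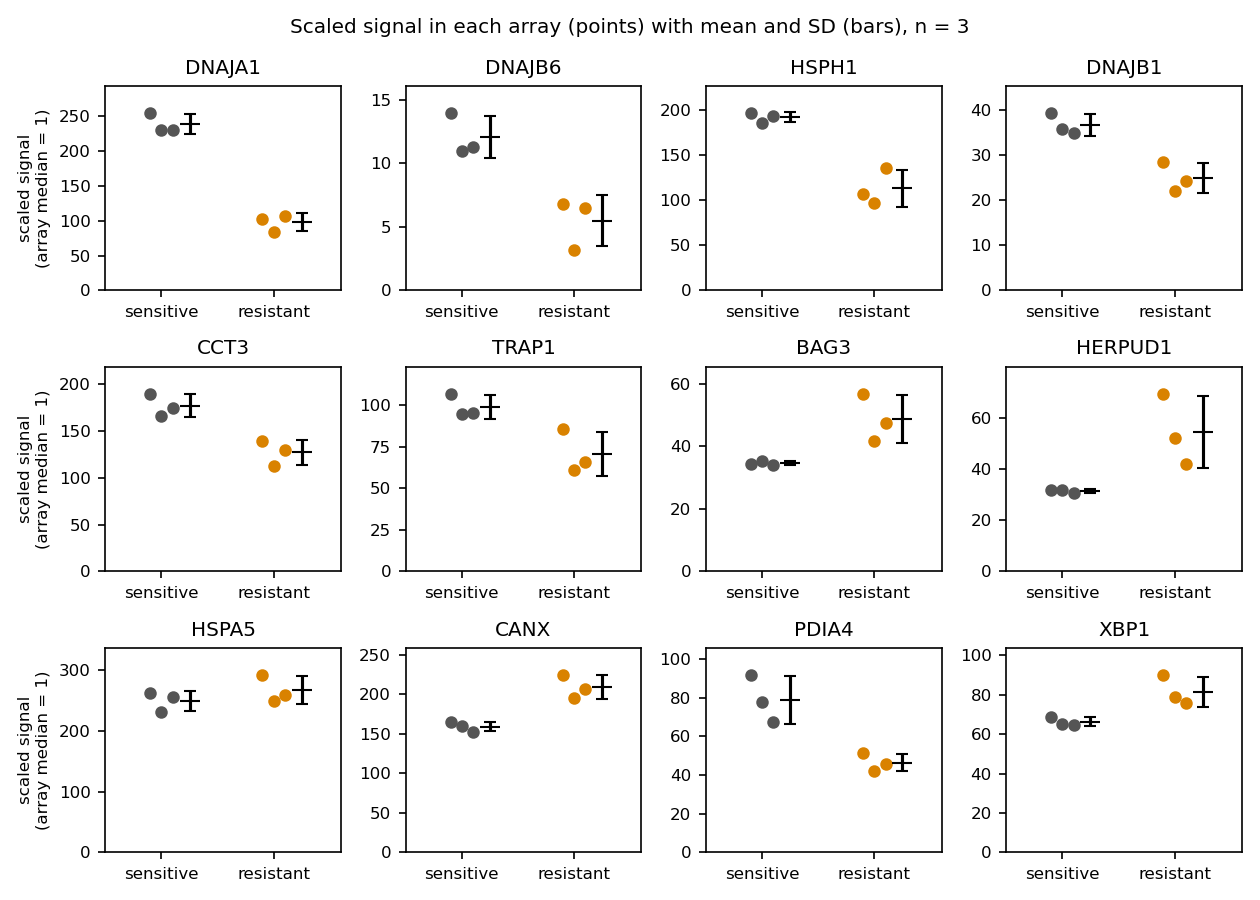
Scaled signal (y axis, array median = 1, axes start at 0) in each of 3 sensitive (grey) and 3 resistant (orange) arrays for 12 chaperone genes, with the mean and SD beside the points. DNAJA1, DNAJB6, HSPH1, DNAJB1, CCT3, TRAP1 and PDIA4 lie lower in all resistant arrays, BAG3, HERPUD1, CANX and XBP1 higher, and HSPA5 overlaps.

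In mitochondria, all 5 members had negative log2 fold changes and non-overlapping arrays, and 4 were called lower, with small changes of −0.50 to −0.38. TRAP1, the mitochondrial Hsp90, was at 107, 94.7 and 95.1 in sensitive and 86.0, 61.0 and 65.8 in resistant cells (log2 fold change −0.50, SE 0.13, limma adjusted p = 0.0036). DNAJA3, the J-domain partner of the matrix Hsp70, was at 63.5, 58.6 and 55.4 against 45.8, 38.7 and 46.2 (−0.44, SE 0.14, limma adjusted p = 0.013). HSPA9 (mortalin), that Hsp70 and the motor of protein import, had 174, 160 and 135 against 131, 105 and 126. This made a log2 fold change of −0.38 (SE 0.12, limma adjusted p = 0.012), and the lowest sensitive array lay close to the highest resistant one.

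The chaperonin of the mitochondrial matrix and its lid differed in their calls. HSPE1 (Hsp10, the lid) was at 380, 326 and 361 in sensitive and 289, 230 and 287 in resistant arrays (log2 fold change −0.41, SE 0.10, limma adjusted p = 0.00092). HSPD1 (Hsp60), the brightest of all members, was at 622, 601 and 604 against 567, 569 and 575. Its groups did not overlap, but the log2 fold change of −0.10 (SE 0.07) equalled the median of all genes and was not called (limma adjusted p = 0.32). Both genes share a bidirectional promoter region in the human genome. HSPE1 minus HSPD1 was not tested. The count of mitochondrial members called lower was 2 without sensitive array 1 and 2 without sensitive array 2. DNAJA3 and HSPA9 lost their calls in each case, with adjusted p of 0.051 to 0.084. The mitochondrial calls also depended on the test. In limma without a trend 0 of the 5 members were called lower. The adjusted p there was 0.055 for DNAJA3, 0.069 for TRAP1, 0.088 for HSPE1 and 0.13 for HSPA9. In the methods' test HSPD1 alone was called lower with equal variances, and 0 members were with unequal variances.

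In the ER, 4 of 15 members were called higher, 2 lower and 9 not. HSPA5 (BiP), the ER Hsp70 and the usual readout of the UPR, had 263, 231 and 256 in sensitive and 293, 249 and 260 in resistant cells. The groups overlapped, and the log2 fold change of 0.10 (SE 0.10) was not called (limma adjusted p = 0.46). HSPA13 (Stch), a shorter Hsp70 relative of microsomes, was called higher, from 13.9, 12.5 and 13.9 to 22.2, 20.6 and 16.8 (log2 fold change 0.56, SE 0.17, limma adjusted p = 0.0079). That call was lost without sensitive array 2 (adjusted p = 0.066). HYOU1 (Grp170), an exchange factor for BiP, and HSP90B1 (Grp94), the ER Hsp90, were not called, with log2 fold changes of 0.10 (limma adjusted p = 0.65) and −0.05 (limma adjusted p = 0.78). A probe set that names HSP90B1 together with a microRNA gene was not used.

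Whereas the 4 cytosolic J-domain members were called lower, none of the 4 in the ER was called by limma after division by the array median, and the difference between the families was not tested. At an unadjusted p under 0.05, 2 of the 4 were higher, and 0 were by limma without a trend or by either form of the methods' t-test. Under other scalings limma did call some of them higher: DNAJB9 and DNAJC10 under all 3 (adjusted p of 0.00068 to 0.014) and with the replicate block (adjusted p = 0.039 and 0.026), and DNAJC3 after quantile normalization (adjusted p = 0.017). DNAJB9 (ERdj4), which recruits BiP to IRE1, was at 14.8 ± 1.26 and 19.7 ± 4.36 (SD, n = 3; log2 fold change 0.39, limma adjusted p = 0.078). DNAJC10 (ERdj5), a reductase for proteins due for degradation, was at 56.8 ± 4.75 and 69.7 ± 9.42 with no overlap (0.29, limma adjusted p = 0.1). DNAJC3 (p58IPK) and DNAJB11 (ERdj3) had log2 fold changes of 0.11 and −0.01 (limma adjusted p = 0.62 and 0.96).

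The lectin chaperones and PDIs, which act together on glycoproteins, held calls in both directions. CANX (calnexin), the membrane-bound lectin, was at 165, 160 and 153 in sensitive and 225, 195 and 207 in resistant arrays (log2 fold change 0.39, SE 0.10, limma adjusted p = 0.0032). CALR (calreticulin), its soluble counterpart, was at 18.1 ± 3.72 and 13.5 ± 1.23 (SD, n = 3) and had a log2 fold change of −0.41 without a call (limma adjusted p = 0.058). Its arrays did not overlap. PDIA3 (ERp57), the disulfide isomerase that both lectins recruit, was lower, at 275, 241 and 231 against 208, 185 and 168 (−0.41, SE 0.10, limma adjusted p = 0.0017). PDIA4 (ERp72) had the strongest decrease in the ER, from 91.8, 77.5 and 67.1 to 51.3, 42.2 and 45.8, a fall to 0.592 times the sensitive level (−0.76, SE 0.14, limma adjusted p = 5.4e-05). PDIA6 (P5) was higher in all resistant arrays, at 179, 157 and 155 against 221, 190 and 199 (0.31, SE 0.11, limma adjusted p = 0.02). So 1 of the 3 PDIs among the members passed the test as higher and 2 as lower, and further PDIs are in the wider list below. The call of PDIA6 was lost without sensitive array 2, sensitive array 3 or resistant array 1 (adjusted p = 0.089, 0.11 and 0.068).

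The UPR members that are not chaperones themselves were both above the sensitive level in every resistant array. HERPUD1 (HERP), a membrane protein of ER-associated degradation, had the largest increase of all members, from 31.7, 31.8 and 30.6 to 69.4, 51.9 and 41.9. The resistant arrays spread widely (54.4 ± 13.9, SD, n = 3, against 31.4 ± 0.668), and the level rose 1.70-fold (log2 fold change 0.76, SE 0.16, limma adjusted p = 0.00022). XBP1, a transcription factor of the UPR whose activity depends on splicing that these values do not resolve, was at 68.8, 65.3 and 64.5 against 90.1, 78.8 and 75.7. Its log2 fold change of 0.30 (SE 0.13) was not called (limma adjusted p = 0.074). The count of ER members called higher was 2 without sensitive array 2.

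**Figure D3:**
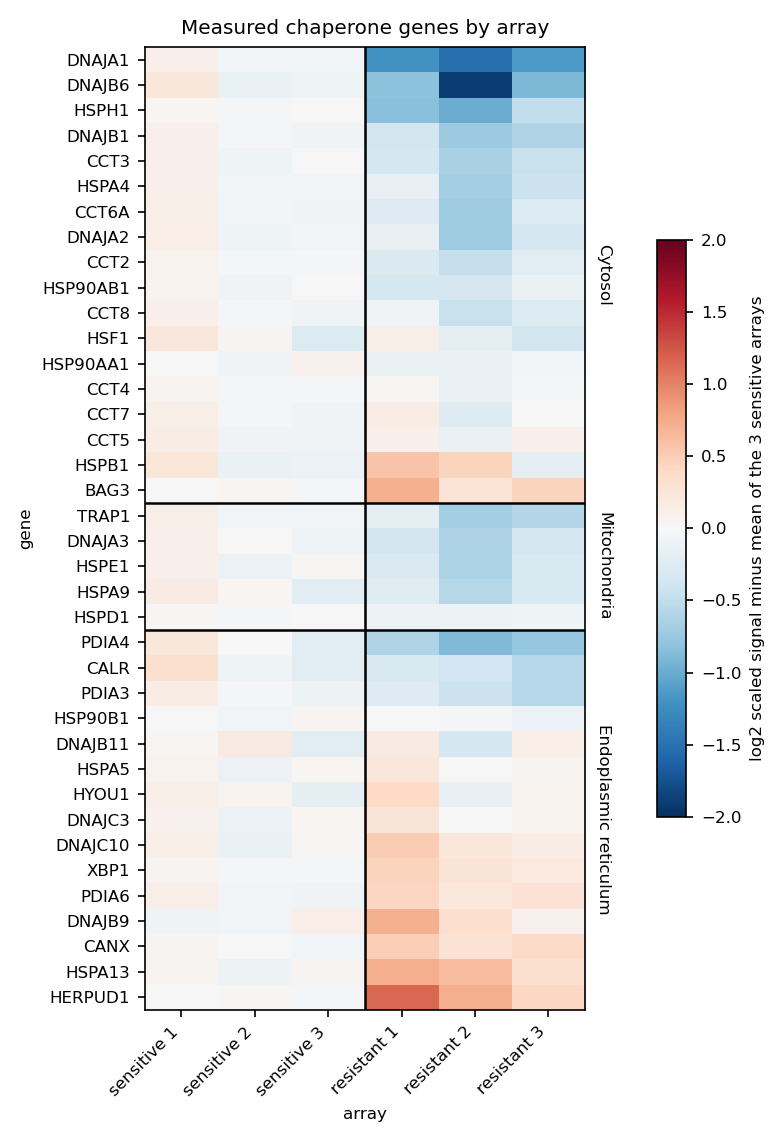
Log2 scaled signal of the 38 measured chaperone genes (rows, by compartment and log2 fold change) in each of the 6 arrays (columns), relative to the mean of the 3 sensitive arrays. The blue of DNAJA1, DNAJB6, HSPH1 and PDIA4 and the red of HERPUD1 and HSPA13 hold in all 3 resistant arrays, and resistant array 2 is the bluest for most cytosolic genes.

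The number of ER calls also depended on how arrays were brought to one scale. With 4 members called higher after division by the array median, 7 were called higher with no further scaling, 10 after quantile normalization and 8 after division by the median of probe sets above the filter, and 2 to 3 were called lower. The share of all genes called higher moved the same way, from 12.4% to 16.1%, 21.1% and 19.4%. In the cytosol, 8 to 11 members were called lower under the same 4 scalings, and in mitochondria 4 under each, while 18.8% to 23.4% of all genes were. Relative to the median of all genes under the same scaling, the ER median was 0.21 to 0.28, the cytosolic median −0.25 to −0.20 and the mitochondrial median −0.31 to −0.28. XBP1, DNAJB9 and DNAJC10 passed the limma test as higher under the 3 other scalings (adjusted p of 0.00028 to 0.014), HSPA5 under 2 of them (adjusted p = 0.041 and 0.047), and DNAJC3 and HYOU1 after quantile normalization (adjusted p = 0.017 and 0.035).

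**Figure D4:**
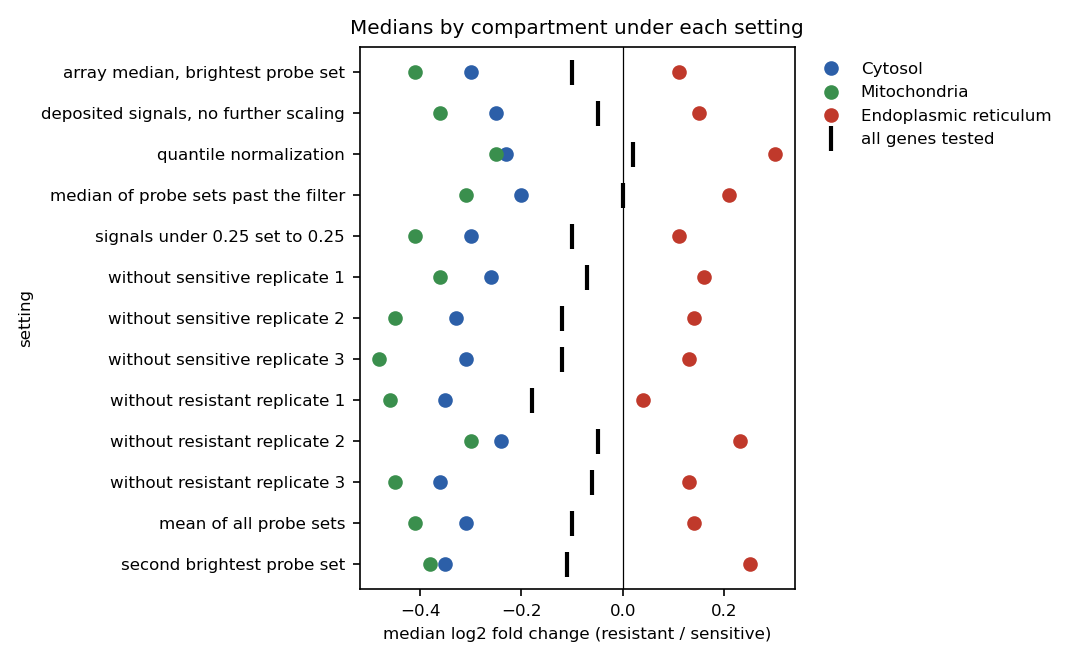
Median log2 fold change (x axis, resistant over sensitive) of the cytosolic, mitochondrial and ER members and of all genes tested (black bars) under each setting that changes values or arrays (y axis). The ER median lies above the median of all genes and the cytosolic and mitochondrial medians below it in each setting drawn.

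Many members have several probe sets, which read different stretches of the same transcripts. The 38 measured members had 92 probe sets, of which 84 were bright enough to be tested among 26833 over the whole array, with p-values adjusted over those. Of all probe sets tested, 9.52% were called higher and 19.5% lower. In the cytosol, 21 of 36 were called lower and 1 higher. Of the mitochondrial probe sets 7 of 11 were called lower, and of the ER ones 8 of 37 were called higher and 4 lower. For the 26 members with more than 1 tested probe set, 0 had calls in opposite directions. DNAJA1 had a log2 fold change of −1.19 on its other probe set, and HSPH1 −1.05 and −0.78 on its 2 others. All 4 probe sets of HSPA4 (−0.50 to −0.36) and all 3 of HSP90AB1 (−0.29 to −0.26) were called lower. HSP90AA1 was called lower on 1 of 4 (−0.33, limma adjusted p = 0.012).

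Other members were less even across their probe sets. HSPD1 was called lower on a second bright probe set (−0.29, limma adjusted p = 0.0082) and on a dim one (−1.35, limma adjusted p = 0.0039), although its brightest was not. HSPA5 was called higher on a probe set with a mean scaled signal of 7.42 (0.58, limma adjusted p = 0.021), far under its brightest at 259. CANX ranged from −0.14 to 0.39, with 1 of 4 probe sets called, and DNAJC3 from −0.35 to 0.47. HSPA13 had 0.04 on its second probe set, which was nearly as bright as the first. PDIA3 had −0.06 and −0.10 on dimmer probe sets. PDIA6 was called higher on 3 of 4 (0.29 to 0.31), and PDIA4 lower on both (−0.81 on the second). DNAJA2 and CCT8 were not called among probe sets (limma adjusted p = 0.053 and 0.064). What sets apart the probe sets of a gene was not tested.

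**Figure D5:**
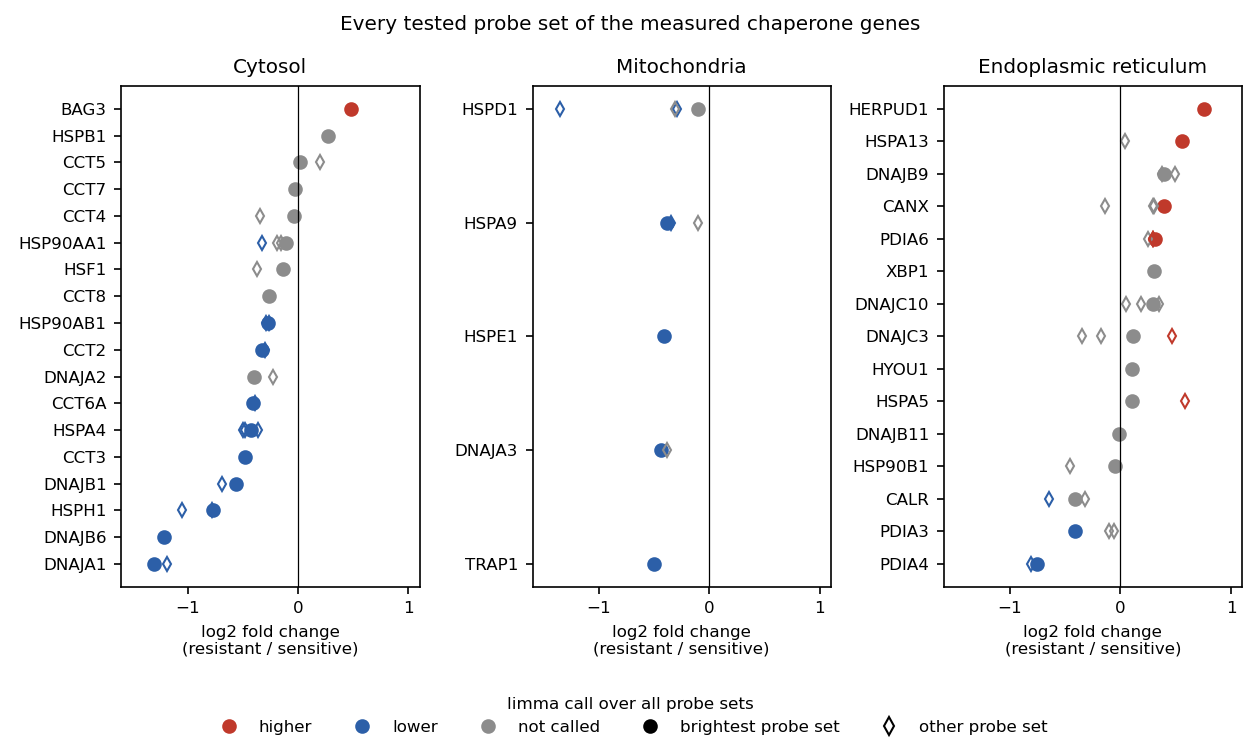
Log2 fold change (x axis, resistant over sensitive) of each of the 84 tested probe sets of the measured chaperone genes (y axis), filled circles for the brightest of a gene and open diamonds for the others, coloured by the limma call over all probe sets. No gene has both a red and a blue symbol, and DNAJA1, HSPA4, HSPH1 and PDIA4 keep a negative value on each probe set.

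The wider chaperone network was read from 90 further genes in the 3 compartments, of which 80 were measured, 9 called higher and 29 lower (all genes: 12.4% and 22.5%). The cytosolic list again leaned downward, with 20 of 38 called lower, 3 higher and a median log2 fold change of −0.38. DNAJA4, a J-domain relative of DNAJA1, fell from 23.1, 27.8 and 24.3 to 3.96, 3.27 and 2.89 (−2.90, limma adjusted p = 1.2e-16). VBP1, a prefoldin subunit that passes actin and tubulin to TRiC, was at 238, 218 and 228 against 86.1, 69.5 and 87.5 (−1.50, limma adjusted p = 1.4e-13). CHORDC1 (Morgana), an Hsp90 co-chaperone, fell by 1.24 on the log2 scale (limma adjusted p = 1.7e-08). HSPA12A, a distant Hsp70 relative at a low level, rose by 1.09 (limma adjusted p = 0.0026). By family, 3 of the 6 Hsp70 and Hsp110 genes of this list were called lower, 1 higher and 2 not. Of its 8 J-domain genes, 5 were called lower and 3 were not called (DNAJB2, DNAJB4 and DNAJB5, named after their values were seen, with log2 fold changes of 0.10, −0.38 and 0.07).

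In the mitochondrial list, 3 of 13 were called lower and 2 higher, near the shares of all genes (22.5% and 12.4%). Its median log2 fold change was −0.20, so this list did not repeat the lean of the 5 mitochondrial members. DNAJC15, a J-domain protein of the inner membrane, had 16.3, 16.6 and 14.9 in the sensitive line against 0.0602, 0.0375 and 0.0888 in the resistant line, which is far under the array median, so its log2 fold change of −8.09 (limma adjusted p = 7.9e-15) depends on the lowest signals of the array. GRPEL1, the exchange factor of HSPA9, and CLPB, a disaggregase, both had a log2 fold change of −0.68 (limma adjusted p = 0.0003 and 0.0018). HSCB, a J-domain protein of iron-sulfur cluster assembly, rose by 0.45 (limma adjusted p = 0.04). The ER list went both ways, with 4 of 29 called higher, 6 lower and a median of −0.01. These counts too were near the shares of all genes. Of the UPR sensors, 1 was called higher, 2 lower and 1 not. EIF2AK3 (PERK) rose from 11.9 ± 0.941 to 20.0 ± 3.16 (SD, n = 3; log2 fold change 0.74, limma adjusted p = 0.00065) and ERN1 (IRE1) fell from 5.34 ± 0.401 to 3.50 ± 0.699 (−0.63, limma adjusted p = 0.021). ATF6 and ATF6B are named here after their values were seen. ATF6 had a log2 fold change of −0.61 (limma adjusted p = 0.0045), and the dim ATF6B was not called (−0.39, limma adjusted p = 0.45). Of the PDIs in this list, also named after their values were seen, P4HB was called higher (0.57, limma adjusted p = 0.00011). ERP29 and ERP44 were not called (0.22 and 0.04). DERL1 (derlin-1), a channel component of ER-associated degradation, fell by 0.65 (limma adjusted p = 8e-05). The J-domain genes of the ER list are likewise named after their values were seen. SEC63 was called lower (−0.39, limma adjusted p = 0.04), and DNAJB12, DNAJB14 and DNAJC1 were not called (−0.22, −0.30 and 0.13). CLGN (calmegin), a calnexin relative, had a log2 fold change of −2.23 (limma adjusted p = 1.5e-06) and a resistant level near the array median. DNAJA4, DNAJC15 and CLGN are in the study's own list of changed genes, chosen on these arrays, and so are not independent evidence of a direction.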

How the data were processed

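Total RNA of 3 sensitive and 3 resistant HT29 samples was hybridized to HG U133 PLUS 2.0 arrays, 1 array per sample, and groups were taken from the submitters' labels. Values deposited by the authors are MAS5 signals, that is, a linear intensity per probe set scaled over each array, which fixes each array's overall brightness before any comparison. No source used here gives the version of MAS5. The authors' later GeneSpring steps are not in these values.

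Of 54675 probe sets, 62 controls were left out of the tests. The platform's annotation names 1 gene for 41091 probe sets, several for 1801 (never used to name a gene) and none for 11721, and symbols of 41037 were updated by Entrez identifier with RefSeq. Each signal was divided by its array's median, with 0.01 as the lowest value allowed. The brightest probe set of each gene was tested on the log2 scale by limma 3.58.1 in R 4.3.3 (lmFit, then eBayes with trend) if its scaled signal averaged 1 or more. This left 11835 genes, with Benjamini-Hochberg adjustment over all of them. Figures were drawn with matplotlib 3.10.9. The fit was tested on simulated data, with changes placed in genes drawn from all those tested. It recovered 32% of 1.5-fold, 66% of 2-fold and 82% of 3-fold changes. It changed 50 genes at each fold, far fewer than were called in the data, and included genes dimmer than any member. These rates are therefore not those of the members. A missing call does not show an unchanged level.

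The members and lists were chosen with earlier results of these data known. Values in every array are given for the members called with the largest changes (at most 5 in each direction per compartment). They are also given for HSPA5, HSP90AA1, HSP90AB1, HSPD1 and XBP1. For the wider lists at most the 4 called genes with the largest change are named, besides those marked as named after their values were seen. Alternatives were other scalings, floors, filters, tests and probe set choices, a replicate block, and leaving out each array. Same-numbered arrays of both lines had correlated deviations of 0.0752, 0.0229 and 0.048, so the numbers were not taken to pair samples.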

Additional observations from a re-analysis of the deposited data

How the results depend on the processing

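The fit found 5 members higher and 17 lower. Members higher numbered 8 with the deposited signals unscaled, 12 after quantile normalization and 9 after division by the median of probe sets above the filter. They numbered 2 with limma without a trend, 1 with the t-test with equal variances and 0 with unequal variances (4 at an unadjusted p under 0.05). Averaging all probe sets gave 1, the second brightest probe set 2, a call that also needed 3-fold 0, and leaving out 1 array 3 to 7. Over all genes, 16.1%, 21.1% and 19.4% were higher under those 3 scalings, 9.48% without a trend, 4.85% with equal and 0.642% with unequal variances. Members lower numbered 6 without a trend, 3 with equal and 0 with unequal variances (11 at an unadjusted p under 0.05), 11 with the second brightest probe set, 0 with the 3-fold demand and 12 to 17 with 1 array left out. Over all genes, 15.9%, 9.49% and 1.13% were lower in those 3 tests, so members were called lower no more often than all genes there, and 16.4% with the second brightest probe set. These shares are at an adjusted p. All genes were not counted at an unadjusted p, so the unadjusted counts have no background and show no excess. The replicate block gave 9 higher and 18 lower (15.0% and 27.6% of all genes). The replicate numbers are not known to pair the samples, although each array's deviations correlated best with those of its own number, a hint from the data and not from the design. Of the 22 members called, 21 passed in the same direction after quantile normalization, 8 without a trend and 12 with the second brightest probe set. DNAJA1 and HSPH1 lost their calls under 1 of 18 alternatives each, the t-test with unequal variances (adjusted p = 0.064 and 0.14), with log2 fold changes of −1.37 to −1.17 and −1.05 to −0.65 over all 18. HERPUD1 lost its call under 4 (adjusted p of up to 0.35).

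Other chaperone genes higher, 9 of 80 in the fit (12.4% of all genes), numbered 18 after quantile normalization and 5 without a trend. With equal variances 1 was higher and with unequal variances 0 (8 at an unadjusted p under 0.05, a threshold at which all genes were not counted). Over all genes, 21.1%, 9.48%, 4.85% and 0.642% were higher in those 4 settings. With all probe sets averaged 5 were higher, and 5 with the second brightest probe set (8.03% and 8.06% of all genes). The 3-fold demand left 0. With 1 array left out 5 to 9 were higher (5 without sensitive array 2 or 3), against 9.56% to 12.9% of all genes. The other chaperone genes lower, 29 in the fit (22.5% of all genes), numbered 15 with equal and 1 with unequal variances (9.49% and 1.13% of all genes). With the 3-fold demand 3 were lower, against 4.13% of all genes in either direction. The mitochondrial median was −0.25 after quantile normalization, and the ER median was 0.30 after quantile normalization and 0.25 with the second brightest probe set. The cause was not tested.

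The sign turned only for members that were not called. Unscaled, after quantile normalization and after division by the median of probe sets above the filter, CCT4 was at 0.00, 0.02 and 0.06, CCT7 at 0.01, 0.09 and 0.07 and DNAJB11 at 0.03, 0.18 and 0.09. HSP90B1 was at 0.09 after quantile normalization and 0.05 after that division, and HSPD1 at 0.00 after the latter. With 1 array left out, values ranged from −0.08 to 0.00 for CCT4, −0.02 to 0.10 for CCT5, −0.12 to 0.08 for CCT7, −0.11 to 0.15 for DNAJB11 and −0.04 to 0.23 for HYOU1.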
